A study of Mus musculus with 6 samples.

Results

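Thymocytes stimulated with anti-CD3 in the presence of 79-6 were set against fresh thymocytes, on 4 of the 6 arrays of the series (2 per group). The arrays were chosen by their titles, and 19937 genes with a probe set of their own were tested on them. The remaining 2 arrays, stimulated with anti-CD3 in DMSO, show the change from fresh without the compound. They were used to sort each stimulation change by what happened to it when 79-6 was present. All cells were Thy1.2+ cells, purified magnetically from fetal thymi of Rag1-/- mice at embryonic day 17.5. The fresh group was taken at 0 h, and both stimulated groups at 40 h, with DMSO or with 50 µM 79-6. Every group, controls included, lacks Rag1, so no array shows a thymus with rearranged T cell receptor genes. The series design calls the culture a fetal thymic organ culture, and the sample labels do not mention it. A whole thymus in culture also holds epithelial, myeloid and stromal cells.

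Without Rag1, thymocytes cannot assemble the pre-T cell receptor and stop at the double-negative 3 (DN3) stage. Antibody to CD3 replaces that signal: cells shut down much of the Notch-dependent DN3 programme, divide, and switch on the coreceptors of the double-positive (DP) stage. 79-6 is an inhibitor of the BTB domain of Bcl6, a transcriptional repressor that rises at this step. The comparison asks how far the passage from the fresh DN3 state was kept, blunted or exceeded when the inhibitor was there. It holds culture, 40 h of time, anti-CD3 and the compound together.

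Replicate arrays correlated at 0.9968 to 0.9977 across genes, 79-6 and fresh arrays at 0.9787 to 0.9835, and 79-6 and DMSO arrays at 0.9927 to 0.9946. The purification antigen Thy1 read 12.82 and 12.78 on the log2 scale in fresh cells, 13.20 and 13.26 with DMSO and 13.05 and 13.08 with 79-6, and Cd3e, a subunit of the CD3 complex, 12.94 to 13.46, so both T-lineage markers were present on every array. Against fresh, Thy1 was 0.26 higher with 79-6 (adjusted p = 0.03, 0.0586 to 0.152 without any 1 fresh or 79-6 array) and Cd3e was 0.46 lower (-0.46, adjusted p = 0.0032). Rag1 signal was present in every group (10.82 to 11.51), but the position of its probes against the deleted part is unknown, and its signal says nothing of the genotype. Sex-linked genes set 2 arrays apart. Xist, which marks female cells, read 5.71 in 79-6 replicate 1 against 11.84 to 13.16 on the other 5 arrays. The Y-linked gene Uty read 6.78 in DMSO replicate 1 against 8.45 to 9.63 elsewhere, and Kdm5d (6.72 against 8.42 to 9.61) and Eif2s3y (6.78 against 9.03 to 10.55) did likewise. The arrays thus hold different shares of male and female tissue, whose part in the results was not tested. No label states whether the 2 replicates of a group came from separate cultures or litters. By the sex-linked genes, the 2 arrays of 79-6 did not hold the same mix of tissue, nor did the 2 of DMSO. Each p-value reflects the spread among these arrays alone, which for the fresh cells may be technical.

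At the threshold used throughout (limma, Benjamini-Hochberg adjusted p under 0.05 over all genes), 5174 genes differed between 79-6 and fresh cells, 26.0% of those tested: 2401 were higher (12%) and 2773 lower (13.9%). Of these, 682 differed at least 2-fold (3.42%), 347 higher (1.74%) and 335 lower (1.68%). With DMSO in place of 79-6, 3902 genes differed from fresh (19.6%), 519 of them at least 2-fold (2.60%). Between 79-6 and DMSO 869 genes differed (4.36%), 475 higher with 79-6 (2.38%) and 394 lower (1.98%), and of these 81 differed at least 2-fold (0.406%), 68 higher (0.341%) and 13 lower (0.0652%). Arrays of 79-6 and fresh cells did not overlap in 12867 genes, 64.5% of all. The fits share arrays (fresh cells stand in both comparisons with them, DMSO arrays in both of theirs and 79-6 arrays in both of theirs), so counts from them are not independent. Without fresh replicate 1 the calls against fresh numbered 3081 and without fresh replicate 2 they numbered 3321. Calls against DMSO numbered 113 and 93 without DMSO replicate 1 or 2, and 127 without 79-6 replicate 2.

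The 519 genes that DMSO cells changed at least 2-fold from fresh are called stimulation changes here, 211 rises (1.06%) and 308 falls (1.54%). The name covers culture, time and vehicle as well as anti-CD3. A change was counted as kept when 79-6 cells still differed from fresh in that direction and did not differ from DMSO, as blunted when 79-6 cells differed from DMSO towards fresh, and as exceeded when they differed from DMSO away from fresh. By this rule 387 were kept (74.6%, or 1.94% of all genes tested), 79 blunted (15.2%, 0.396% of all) and 46 exceeded (8.86%, 0.231% of all). A further 2 crossed to the other side of fresh (0.0100% of all) and 5 could not be placed (0.0251%). Not differing from DMSO does not show equality. For 266 of the 387 kept changes the 95% interval of the difference from DMSO lay within 1.5-fold. A further 140 genes (0.702% of those tested), 106 higher and 34 lower, differed at least 2-fold from fresh with 79-6 and, in the same direction, from DMSO, without being stimulation changes. They are called changes added with 79-6. Many of them had also changed with DMSO, by less than 2-fold. Their median log2 change with DMSO was 0.53 over the 106 rises and -0.71 over the 34 falls. Of all 682 genes at least 2-fold from fresh with 79-6, 62 were not called with DMSO. As examples of the limit, Lpar6 (1.0010 on the log2 scale) lay just inside the 2-fold limit for a rise and Mxd3 (0.9992) just outside it, and Usp18 (-1.0005) just inside and Emcn (-0.9984) just outside that for a fall.

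The median log2 change over the 211 rises was 1.31 with DMSO and 1.58 with 79-6, and over the 308 falls -1.42 and -1.30. Because the DMSO arrays both choose the stimulation changes and serve in the difference from 79-6, the choice was repeated with 1 DMSO array and the difference measured on the other. The median difference, 79-6 minus DMSO, was then 0.01 or 0.08 for rises and 0.05 or 0.12 for falls, against 0.10 and 0.11 with both arrays, and 0.02 over all genes. The classes rest on 2 arrays per group: without DMSO replicate 1, DMSO replicate 2 or 79-6 replicate 2 only 18, 15 and 13 changes were counted as blunted, and 10, 11 and 12 as exceeded. Changes added with 79-6 fell to 42, 34 and 44 without the same arrays, while without 79-6 replicate 1 there were 49 blunted, 24 exceeded and 118 added. In all, 51 of the 267 blunted, crossed, exceeded or added genes were called against DMSO with any 1 array left out. They are named as such below.

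**Figure D1:**
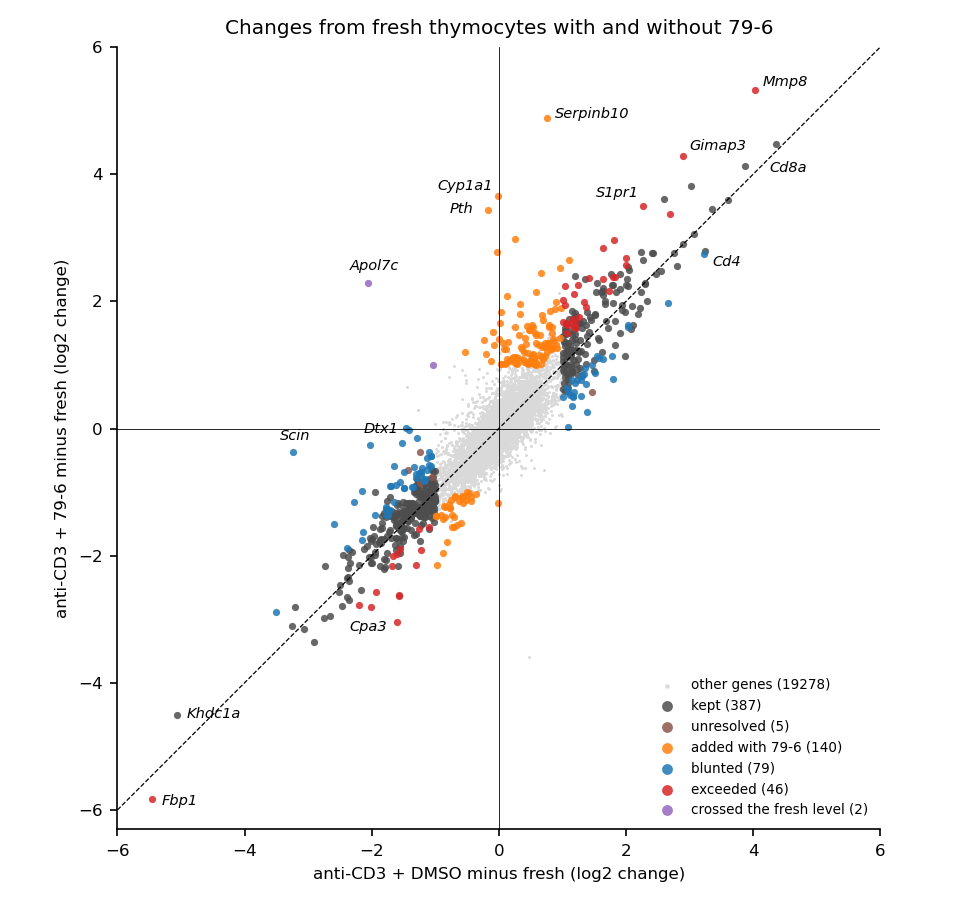
Each point is a gene, placed by its log2 change from fresh with DMSO (horizontal) and with 79-6 (vertical), and coloured by class. The dashed line marks equal change. For 266 of the 387 kept genes the interval of the difference lies within 1.5-fold of it. Cyp1a1 lies high near the vertical axis, Serpinb10 high and to its right (0.76 with DMSO), and Scin and Dtx1 lie near no change with 79-6.

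The rises of both CD8 chains were kept. Cd8a, the alpha chain of the CD8 coreceptor, read 7.85 and 7.77 in fresh cells, 12.19 and 12.14 with DMSO and 12.27 and 12.31 with 79-6. Both stimulated groups lay far above fresh cells and close to each other: the rise with 79-6 was 22.3-fold (log2 change 4.48 ± 0.07 SE, adjusted p = 3.8e-07), and the interval of its difference from DMSO ran from -0.05 to 0.29. Its partner Cd8b1 read 10.32 and 10.09, then 13.26 and 13.29, then 13.31 and 13.21, a rise of 3.06 with 79-6 and 3.07 with DMSO. The adhesion receptor Cd2 rose by 3.45 and 3.35, the costimulatory receptor Cd28 by 2.28 and 2.30, and the thymic homing receptor Ccr9 by 2.76 and 2.42. Among regulators, Id3, an inhibitor of E proteins that T cell receptor signals induce, read 6.51 and 6.48 in fresh cells, 8.93 and 9.0 with DMSO and 9.0 and 8.86 with 79-6. The Ikaros-family gene Ikzf3 rose by 2.56 and 2.81. Signalling genes kept their rises too: Zap70, the kinase that binds the CD3 chains, rose by 1.51 with 79-6 and 1.42 with DMSO, and Rasgrp1, which activates Ras downstream, by 1.40 and 1.58.

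Of the 12 largest falls with 79-6, 8 were kept, 3 exceeded (Fbp1, Cpa3 and Gm10384) and 1 blunted (Mpzl2, -2.89 against -3.51 with DMSO). Fbp1, a gluconeogenic enzyme, read 11.95 and 11.97 in fresh cells, 6.53 and 6.49 with DMSO and 6.08 and 6.19 with 79-6. Its fall of 56.7-fold (log2 change -5.83 ± 0.07, adjusted p = 1.4e-07) was the largest of any called gene, and 43.6-fold with DMSO. The difference between them was called as exceeded (adjusted p = 0.039), but not with any 1 array left out (0.0695 to 0.171). Khdc1a (-4.50), whose probe set may read related genes of its family, the cadherin Cdh23 (-3.10), Myl10 (-3.15), Vwce (-3.36), the protease Capn5 (-2.99) and B4galnt2 (-2.81) fell by amounts that were not called different from DMSO. Among genes outside the DP programme, Lyz2, the lysozyme of myeloid cells, rose by 4.13 with 79-6 and 3.88 with DMSO, and Ly6a2 by 3.60 with both.

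Not all of the DP programme reached its DMSO level. Of 22 measured beta-selection and DP genes 11 were higher than fresh with 79-6 and 6 lower (median log2 change 0.20, against 0.05 over all genes), compared with 13 and 5 with DMSO (median 0.48). Gene by gene the median difference, 79-6 minus DMSO, was only -0.03. The summed intensity of the list was 85127 and 87018 with DMSO and 85785 and 86278 with 79-6. Of its members 4 were lower with 79-6 than with DMSO and none higher. Cd4, the other coreceptor, read 7.48 and 7.41 in fresh cells, 10.54 and 10.81 with DMSO and 10.22 and 10.16 with 79-6. All 4 stimulated arrays lay above fresh and both 79-6 arrays below both DMSO arrays. It rose 6.73-fold with 79-6 and 9.41-fold with DMSO, a difference of -0.48 ± 0.10 (adjusted p = 0.046). Cd6, a receptor that tunes T cell receptor signals, read 6.70 and 6.80, then 9.39 and 9.44, then 8.77 and 8.67, rising 3.92-fold with 79-6 against 6.34-fold (adjusted p of the difference = 0.0077). Arpp21, a thymocyte gene that fell by 1.08 with 79-6 and by 0.44 with DMSO, and Slamf1, 0.62 below fresh with 79-6 and 0.41 above it with DMSO (-1.04 between the groups, adjusted p = 0.004), were the other members lower than in DMSO. Slamf1 kept this call with any 1 array left out, and Cd4 with none (adjusted p 0.0686 to 0.193). Cd6 and Arpp21 lost it without 79-6 replicate 2, DMSO replicate 1 or DMSO replicate 2 (0.0516 to 0.0835).

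Bcl6 itself, the target of the compound, was among the blunted rises. It read 7.51 and 7.36 in fresh cells, 8.98 and 9.17 with DMSO and 8.54 and 8.51 with 79-6. It rose 2.13-fold with 79-6 (1.09 ± 0.09, adjusted p = 0.00023) and 3.12-fold with DMSO, and the difference of -0.55 (adjusted p = 0.025) was lost without either DMSO array or either 79-6 array (0.0613 to 0.147). The chromatin organiser Satb1 behaved alike, at 11.75 and 11.74, then 12.94 and 13.01, then 12.50 and 12.53, with a rise of 0.77 against 1.23. Its difference was lost without the same arrays (0.0503 to 0.126). The array measures RNA of Bcl6, not its activity.

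The list of candidate Bcl6 targets, drawn from genes that Bcl6 binds or restrains in other lymphocytes, moved both ways. Of 22 measured, 10 were higher than fresh with 79-6 and 8 lower (median 0.05, against 0.05 over all genes), and with DMSO 4 and 8 (median -0.09). Against DMSO 6 were higher and 2 lower. The 10 rises became 6 without fresh replicate 1, where the median was -0.05, while without fresh replicate 2 the median was 0.23. The 6 became 3 without DMSO replicate 2, and the 2, Bcl6 and Chek1, became 0 without 79-6 replicate 2 or either DMSO array and 1 without 79-6 replicate 1. Those higher than DMSO were S1pr1, Klf2, Socs2, Runx3, Id2 and Bcl2. Runx3, which drives the CD8 lineage, read 10.32 and 10.35 in fresh cells, 10.23 and 10.28 with DMSO and 11.00 and 11.05 with 79-6, higher on both 79-6 arrays than on any other (0.69 above fresh, adjusted p = 0.00049), with any 1 array left out. Bcl2, a survival factor, stood at -0.70 from fresh with DMSO and -0.02 with 79-6, and Id2 at -0.58 and 0.06. The calls of both against DMSO were lost without 79-6 replicate 2 or DMSO replicate 2 (0.0896 to 0.124), and that of Id2 also without DMSO replicate 1. Prdm1, the repressor that Bcl6 opposes, was 0.52 higher than fresh with 79-6 (adjusted p = 0.015, lost without fresh replicate 1 or 79-6 replicate 2) and 0.16 with DMSO (adjusted p = 0.4). The list overlaps others, with 13 of its members in another.

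The remaining blunted rises with the largest differences were of mixed function. Ano6, a membrane scramblase, read 11.28 and 11.42 in fresh cells, 12.32 and 12.53 with DMSO and 11.38 and 11.35 with 79-6. The 79-6 arrays lay within the range of the fresh ones, so the whole rise of 1.08 seen with DMSO was missing (0.02 with 79-6, adjusted p = 0.91), and the difference of -1.06 (adjusted p = 0.0035) was called with any 1 array left out. It was the only one of the 31 blunted rises of which this held. Slc7a11, the cystine transporter, rose by 1.38 with DMSO and was 0.27 above fresh with 79-6 (adjusted p = 0.37). The hypoxia-response genes Egln3 (0.52 against 1.29) and Bnip3 (0.51 against 1.17), the glycolytic enzyme Pfkp (1.0 against 1.46) and the survival gene Bcl2l1 (0.53 against 1.12) were also blunted. Their calls against DMSO, like those of Slc7a11, Syt13 and Prtn3, were lost without 1 or more arrays, 79-6 replicate 2 and DMSO replicate 2 among them for each (0.062 to 0.207). Bnip3 also lost its call against fresh without any 1 fresh or 79-6 array (0.0647 to 0.15), and Egln3 without fresh replicate 1 (0.0544). In the glycolysis and hypoxia list 6 of 18 genes were higher than fresh with 79-6, 2 of them without fresh replicate 1, and 10 with DMSO.

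Among the 48 blunted falls the median difference from DMSO was 0.57, and among the 31 blunted rises -0.51. Scin, an actin-severing protein, read 11.08 and 11.15 in fresh cells, 8.07 and 7.67 with DMSO and 10.80 and 10.67 with 79-6. DMSO cells had lost it 9.47-fold, while 79-6 cells read 1.3-fold below fresh (log2 change -0.38 ± 0.13, adjusted p = 0.078), 7.29-fold above DMSO (adjusted p = 0.0003). The anti-inflammatory cytokine Il10 read 7.51 and 7.47, then 5.39 and 5.52, then 7.40 and 7.08. It fell by 2.03 with DMSO and stood at -0.25 with 79-6 (adjusted p = 0.15). Prag1 and Plet1 fell by 1.46 and 1.41 with DMSO and stood at 0.01 and -0.03 with 79-6. Socs2, a feedback inhibitor of cytokine signalling, read 9.56 and 9.60, then 7.45 and 7.40, then 8.54 and 8.66, between the other groups, with a fall of 0.98 against 2.15. For these 5 genes the difference from DMSO was called with any 1 array left out, as for 10 of the 48 blunted falls.

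Among genes of immature thymocytes, Kit, the receptor for stem cell factor, fell by 0.60 with 79-6 and by 1.65 with DMSO, and its difference of 1.06 was called with any 1 array left out. Erg, a transcription factor of early progenitors, fell by 1.87 and 2.38, and Mpzl2, an adhesion protein, stood at -2.89 and -3.51 from fresh. The differences for Erg and Mpzl2 were lost without 79-6 replicate 2 or either DMSO array (0.0616 to 0.155), and that for Mpzl2 also without 79-6 replicate 1. Other progenitor genes kept their falls: Mycn fell by 1.47 and 1.53, Gfi1b by 1.31 and 1.32 and Bcl11a by 1.09 and 1.04. Lmo2, a stem-cell cofactor normally shut off before the DN3 stage, read 8.23 and 8.33 in fresh cells, 8.48 and 8.62 with DMSO and 9.39 and 9.43 with 79-6. It was 1.13 above fresh with 79-6 (adjusted p = 0.00011) and highest on both 79-6 arrays. Of 19 measured DN3 and earlier genes 3 were higher than fresh and 10 lower with 79-6 (median -0.50), and 2 and 8 with DMSO (median -0.27). The list did not fall further gene by gene: the median difference, 79-6 minus DMSO, was 0.11. Against DMSO 3 were higher and 2 lower.

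**Figure D2:**
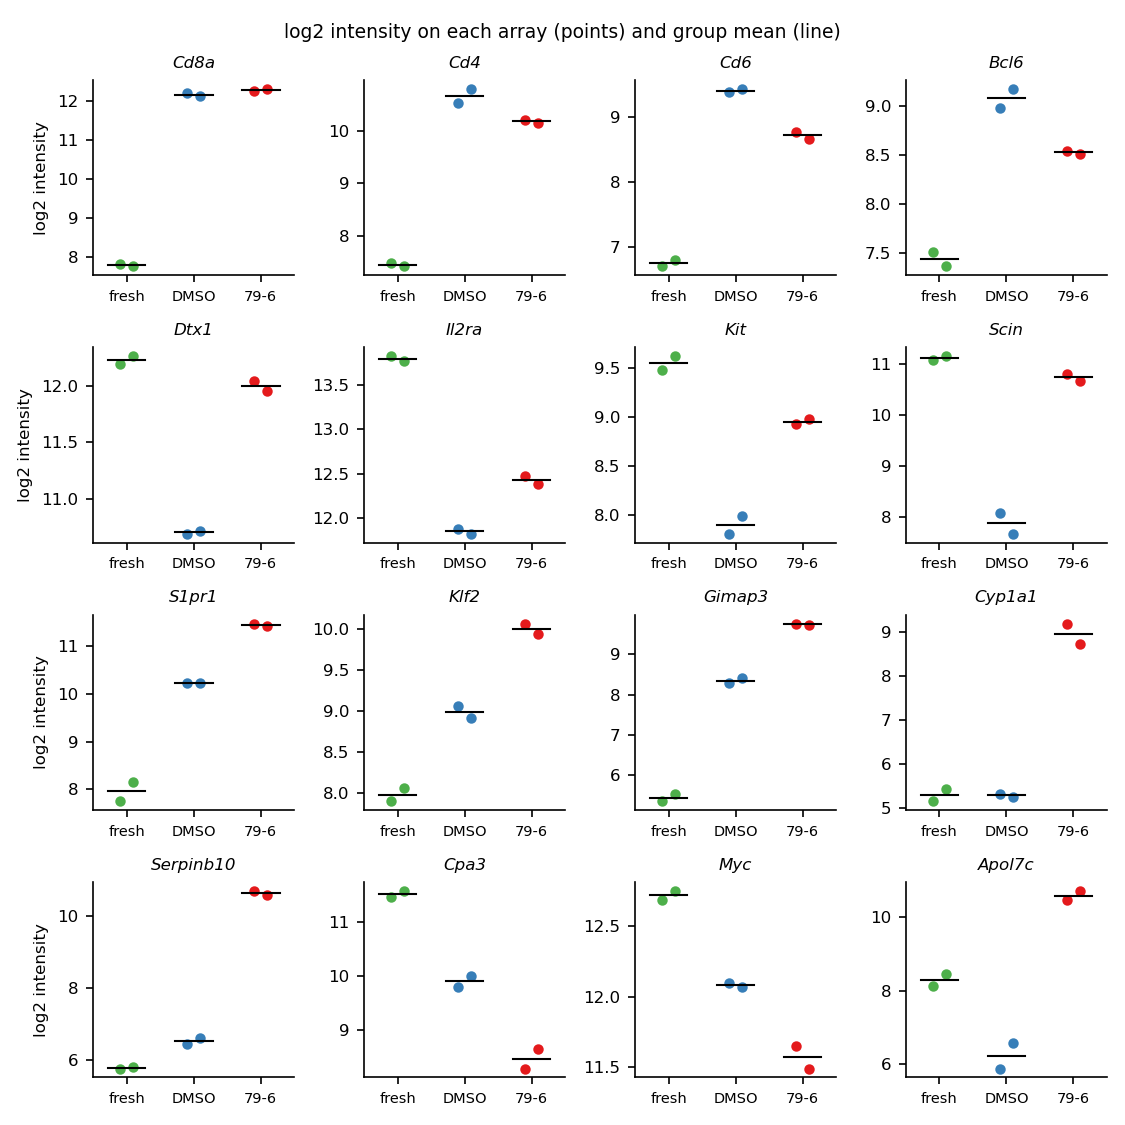
log2 intensity (vertical axes, each panel with its own range) of 16 genes on every array; points are arrays and lines group means. Cd8a is at a close level in both stimulated groups, Dtx1, Kit and Scin with 79-6 lie nearer fresh, S1pr1, Klf2 and Gimap3 lie above DMSO, and Cyp1a1 is high only on the 79-6 arrays.

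Within the Notch pathway most falls were kept and that of Dtx1 was not. Of 19 measured members 10 were lower than fresh with 79-6 and 3 higher (median -0.60, against 0.05 over all genes), and with DMSO 11 lower and none higher (median -0.89). Gene by gene the median difference, 79-6 minus DMSO, was 0.08. The target genes Hes1 (-1.45 with 79-6, -1.52 with DMSO), Hey1 (-1.46, -1.43), Heyl (-0.89, -1.28) and Nrarp (-1.24, -1.32), the receptor Notch3 (-1.17, -1.46) and Ptcra (-1.81, -1.86), which encodes the pre-T cell receptor alpha chain, were all kept. Ptcra read 11.87 and 11.80 in fresh cells, 9.93 and 10.03 with DMSO and 10.06 and 9.99 with 79-6, so that both stimulated groups overlapped. Dtx1, a Notch target that encodes an E3 ligase, read 12.19 and 12.26, then 10.69 and 10.72, then 12.04 and 11.96. It fell 2.87-fold with DMSO, while the 79-6 arrays stayed close under fresh (-0.23 ± 0.07, adjusted p = 0.06), 2.45-fold above DMSO (adjusted p = 0.00059, with any 1 array left out). Il2ra, the high-affinity interleukin-2 receptor chain that marks DN3 cells, fell by 1.37 with 79-6 and 1.94 with DMSO, a difference lost without either DMSO array (0.0717 or more). Lfng, a fringe enzyme that sensitises cells to Notch ligands, was added with 79-6 (1.11 against 0.30 with DMSO). Its call against DMSO was lost without 79-6 replicate 2 or DMSO replicate 2. The calls of Notch members higher than DMSO, 4 in all, numbered 1 without DMSO replicate 2 and 2 without DMSO replicate 1 or 79-6 replicate 2.

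A pair of falls crossed over. Apol7c read 8.14 and 8.44 in fresh cells, 5.89 and 6.59 with DMSO and 10.46 and 10.71 with 79-6. It fell 4.14-fold with DMSO and rose 4.91-fold with 79-6 (2.29 ± 0.22, adjusted p = 0.00044), 20.3-fold apart. Sidt1 read 9.14 and 9.06, then 8.11 and 8.02, then 10.13 and 10.09, falling 2.05-fold and rising 2.01-fold. In both genes the 3 groups did not overlap, and both were called against DMSO with any 1 array left out.

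The 6 exceeded rises with the largest differences from DMSO were Gimap3, Mmp8, S1pr1, Itgb7, Pilra and Kynu. Gimap3, a GTPase of the immunity-associated family that supports T cell survival, read 5.36 and 5.54 in fresh cells, 8.29 and 8.40 with DMSO and 9.75 and 9.71 with 79-6. It rose 19.4-fold with 79-6 (4.28 ± 0.09, adjusted p = 1e-06) and 7.42-fold with DMSO. S1pr1, the receptor by which mature thymocytes leave the thymus, read 7.75 and 8.16, then 10.23 and 10.22, then 11.48 and 11.42, rising 11.3-fold against 4.83-fold (adjusted p of the difference = 0.0057). Klf2, the transcription factor that drives S1pr1, read 7.90 and 8.06, then 9.06 and 8.91, then 10.07 and 9.94, rising 4.06-fold against 2.01-fold. In each of these genes both 79-6 arrays lay above both DMSO arrays, which lay above fresh. Itgb7, an integrin chain for gut homing, rose by 2.24 against 1.03. Foxo1, a transcription factor upstream of Klf2 and chosen here after its values were seen, rose by 2.37 against 1.42. Gimap4 (3.38 against 2.70), Gimap6 (2.17 against 1.73), Gimap8 (1.72 against 1.17) and Cd52 (1.99 against 1.34), chosen likewise, were also exceeded. Gimap probe sets may read related genes. Gimap3, Klf2 and Foxo1 were among the 5 of 31 exceeded rises called against DMSO with any 1 array left out. S1pr1 lost its call without DMSO replicate 1 or 2 (0.0607 and 0.0567), Itgb7 also without 79-6 replicate 2 (up to 0.0761), and Gimap4, Gimap6, Gimap8 and Cd52 without either DMSO or either 79-6 array (0.0554 to 0.191).

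Other homing genes were higher as well. Of 19 measured chemokine, integrin and homing receptors 13 were higher than fresh with 79-6 and 3 lower (median 1.12, against 0.05 over all genes), and with DMSO 10 and 1 (median 0.46). Against DMSO 8 were higher and none lower. Beside S1pr1, Klf2 and Itgb7 these were Ccr7, the receptor that guides T cells to lymph nodes (1.60 above fresh, 0.80 with DMSO), the sphingosine receptor S1pr4 (1.31, 0.72), the platelet and myeloid integrin Itgb3 (1.12, 0.69), Cxcr6 (0.81, -0.26) and Itgae. Itgae, the integrin chain that pairs with Itgb7 to bind epithelium, read 8.31 and 8.42 in fresh cells, 8.76 and 8.85 with DMSO and 10.11 and 9.84 with 79-6, a rise of 3.04-fold called against DMSO with any 1 array left out. The 8 calls against DMSO numbered 2 without DMSO replicate 1 or 2, 5 without 79-6 replicate 1 and 3 without 79-6 replicate 2.

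The others of these 6 are known from myeloid cells: the neutrophil collagenase Mmp8 rose by 5.33 against 4.03, the largest log2 rise with 79-6, the inhibitory receptor Pilra by 2.83 against 1.64, and the kynurenine-pathway enzyme Kynu by 2.97 against 1.80. Each lost its call against DMSO without 79-6 replicate 2 or either DMSO array, and Pilra also without 79-6 replicate 1 (0.0517 to 0.159). Exceeded falls were fewer, 15 of 308. Cpa3, a carboxypeptidase of mast cells and of early progenitors, read 11.45 and 11.56 in fresh cells, 9.79 and 10.00 with DMSO and 8.29 and 8.64 with 79-6. It fell 8.21-fold with 79-6 (-3.04 ± 0.13, adjusted p = 1.6e-05) and 3.04-fold with DMSO. Ccdc18 (-2.61 against -1.57), 1700048O20Rik (-2.63 against -1.57) and Gm10384 (-2.81 against -2.01) completed the 4 exceeded falls called with any 1 array left out. Fstl4 (-2.14 against -1.31) lost its call without 79-6 replicate 2 or either DMSO array and Myzap (-1.91 against -1.23) without DMSO replicate 2 (0.0686 or more).

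Target genes of the aryl hydrocarbon receptor (AhR) stood out among changes added with 79-6. AhR is a ligand-activated transcription factor that binds, with its partner Arnt, at a core GCGTG. The sequences here, from RefSeq (GRCm38.p6), show that core (capitals, GCGTG or its reverse complement CACGC) in the 250 bases before the start of the 4 members with the largest rises, each written 5′ to 3′ on the gene's strand. Another match of Ahrr, 27 bases before its start, and the match of Lpcat2 are not printed. The capitals mark matches to 5 bases and not known binding sites. Binding of AhR at them was not tested, and sites further upstream were not sought.
Cyp1a1 (chr9:57697529-57697593, plus strand): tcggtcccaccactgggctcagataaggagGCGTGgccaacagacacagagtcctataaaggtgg
Cyp1b1 (chr17:79715103-79715167, minus strand): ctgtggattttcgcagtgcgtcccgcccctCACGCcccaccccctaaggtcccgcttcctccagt
Ahrr (chr13:74292404-74292468, minus strand): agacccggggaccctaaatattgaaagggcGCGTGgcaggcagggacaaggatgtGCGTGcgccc
Tiparp (chr3:65528247-65528311, plus strand): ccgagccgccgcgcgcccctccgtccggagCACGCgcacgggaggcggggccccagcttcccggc
The core is common: 28.2% of all RefSeq promoters examined hold it, as do 39.4% of tested genes with a promoter there. It stood before 6 of 8 AhR list members with one and all 5 added with 79-6. These 5 were picked as known targets that rose, so their share is no test. Of all added rises with a promoter 46.3% hold it (38 of 82), and of added falls 57.1% (16 of 28). Other classes ran from 20.8% (exceeded rises) to 50.0% (blunted rises).

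Cyp1a1, a cytochrome P450 that oxidises aromatic compounds, read 5.16 and 5.44 in fresh cells, 5.32 and 5.26 with DMSO and 9.18 and 8.72 with 79-6. Both 79-6 arrays lay far above the rest, 12.6-fold over fresh (3.65 ± 0.16, adjusted p = 1.6e-05). The values carry no detection call, and the fresh and DMSO readings lie below the lowest reading of Xist (5.71), so they are not shown to be above background. Folds over baselines near that level, here and for Cyp1b1, Ahrr, Gimap3 and Serpinb10, describe array intensities and may be smaller than the change in RNA. Cyp1b1, a related enzyme, read 5.99 and 6.20, then 5.98 and 6.17, then 9.06 and 8.70, rising 6.88-fold. Ahrr, the repressor that AhR induces against itself, read 5.30 and 5.33, then 5.52 and 5.63, then 8.14 and 8.46, rising 7.89-fold. In all of these the fresh and DMSO arrays lay within 0.4 of each other and the 79-6 arrays over 2 log2 units above them. Tiparp, an ADP-ribosyltransferase that also feeds back on AhR, read 8.90 and 9.01, then 9.54 and 9.54, then 11.16 and 11.06, rising 4.45-fold against 1.5-fold with DMSO. These 4 were called against DMSO with any 1 array left out, while Lpcat2, a lipid-remodelling enzyme (1.01 against 0.10), lost its call without 79-6 replicate 2 or either DMSO array (0.0998 to 0.109). Nqo1, another target, fell less with 79-6 (-0.60) than with DMSO (-1.34), though its call against fresh was lost without either fresh array or 79-6 replicate 2 (0.0679 to 0.0982) and that against DMSO without any 1 array but DMSO replicate 2 (0.0561 to 0.12). Cyp1a2 and Aldh3a1 were at 0.14 and 0.10 from fresh (adjusted p = 0.26 and 0.46). The receptor Ahr itself fell by 1.52 with 79-6 and 1.61 with DMSO, and Arnt was 0.21 above fresh (adjusted p = 0.06). Of 10 measured list members 5 were higher than fresh and 2 lower with 79-6 (median 0.61), 1 and 2 with DMSO (median 0.02), and 6 were higher than DMSO. Without fresh replicate 1, fresh replicate 2 or 79-6 replicate 2 there was 1 fall, that of Ahr.

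The largest intensity change among the 106 rises added with 79-6 was that of Serpinb10, a serine protease inhibitor of haematopoietic cells. It read 5.76 and 5.80 in fresh cells, 6.45 and 6.62 with DMSO and 10.71 and 10.60 with 79-6. In intensity the DMSO arrays lay 1.69-fold above fresh and the 79-6 arrays 29.4-fold (4.88 ± 0.08, adjusted p = 4.4e-07). Its probe set may read related serpins, and its RefSeq window holds no GCGTG. The decoy receptor Il1r2 rose by 2.45 against 0.66, and the protease inhibitor Spint1 by 2.52 against 0.96. Serpinb10, Il1r2 and Spint1 were called against DMSO with any 1 array left out, as were 25 of the 106. Gpnmb, a glycoprotein of macrophages, was 2.66 above fresh against 1.10, but its call was lost without either 79-6 or either DMSO array (0.0939 to 0.188). Among T-lineage genes, Cd7 rose by 1.78 against 0.67 and the Ikaros-family gene Ikzf2 by 1.43 against 0.97, and both lost the call against DMSO without 79-6 replicate 2 or either DMSO array, and Ikzf2 also without 79-6 replicate 1.

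Pth, the parathyroid hormone gene, belonged to the same group, with both 79-6 arrays above all others but the DMSO arrays far apart. It read 6.52 and 6.59 in fresh cells, 5.44 and 7.33 with DMSO and 10.00 and 9.99 with 79-6. The DMSO arrays alone spanned nearly 2 log2 units, and the rise of 3.44 ± 0.50 over fresh (adjusted p = 0.0025) came with one in Chga, a granule protein of endocrine cells (2.08 ± 0.31, adjusted p = 0.0027). Of 3 measured parathyroid markers 2 were higher than fresh, and their summed intensity was 336 and 353 in fresh cells, 252 and 503 with DMSO and 1798 and 1833 with 79-6. Against DMSO 2 were called higher as reported, and 0 with trend and robust settings. The call of Pth against DMSO was lost without 79-6 replicate 2 (0.0946), and that of Chga without either 79-6 array (0.0606 and 0.119).

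Over the 34 falls added with 79-6 the median log2 change from fresh was -1.23 with 79-6 and -0.71 with DMSO. Camkv, a kinase-like protein, read 8.98 and 8.99 in fresh cells, 7.97 and 8.04 with DMSO and 6.80 and 6.89 with 79-6, falling 4.41-fold against 1.97-fold. Il17rb, a receptor for interleukin-25, read 10.75 and 10.76, then 9.90 and 9.86, then 8.91 and 8.70, falling 3.87-fold against 1.84-fold. The groups stepped down without overlap, and both genes were called against DMSO with any 1 array left out, as was Smim5 (-1.55 against -0.71). The stress-response gene Ndrg1 (-1.78 against -0.82), the water channel Aqp11 (-1.52 against -0.66), A930003A15Rik (-1.54 against -0.73), the sulphation enzyme Papss2 (-1.49 against -0.59) and Tnfrsf8, which encodes CD30 (-1.43 against -0.88), lost it without DMSO replicate 2 or more arrays (0.0581 to 0.175). Myc, the growth regulator, read 12.68 and 12.75, then 12.10 and 12.07, then 11.65 and 11.49. It fell 2.21-fold with 79-6 and 1.55-fold with DMSO, a difference lost without 79-6 replicate 2 or either DMSO array (0.107 to 0.124).

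**Figure D3:**
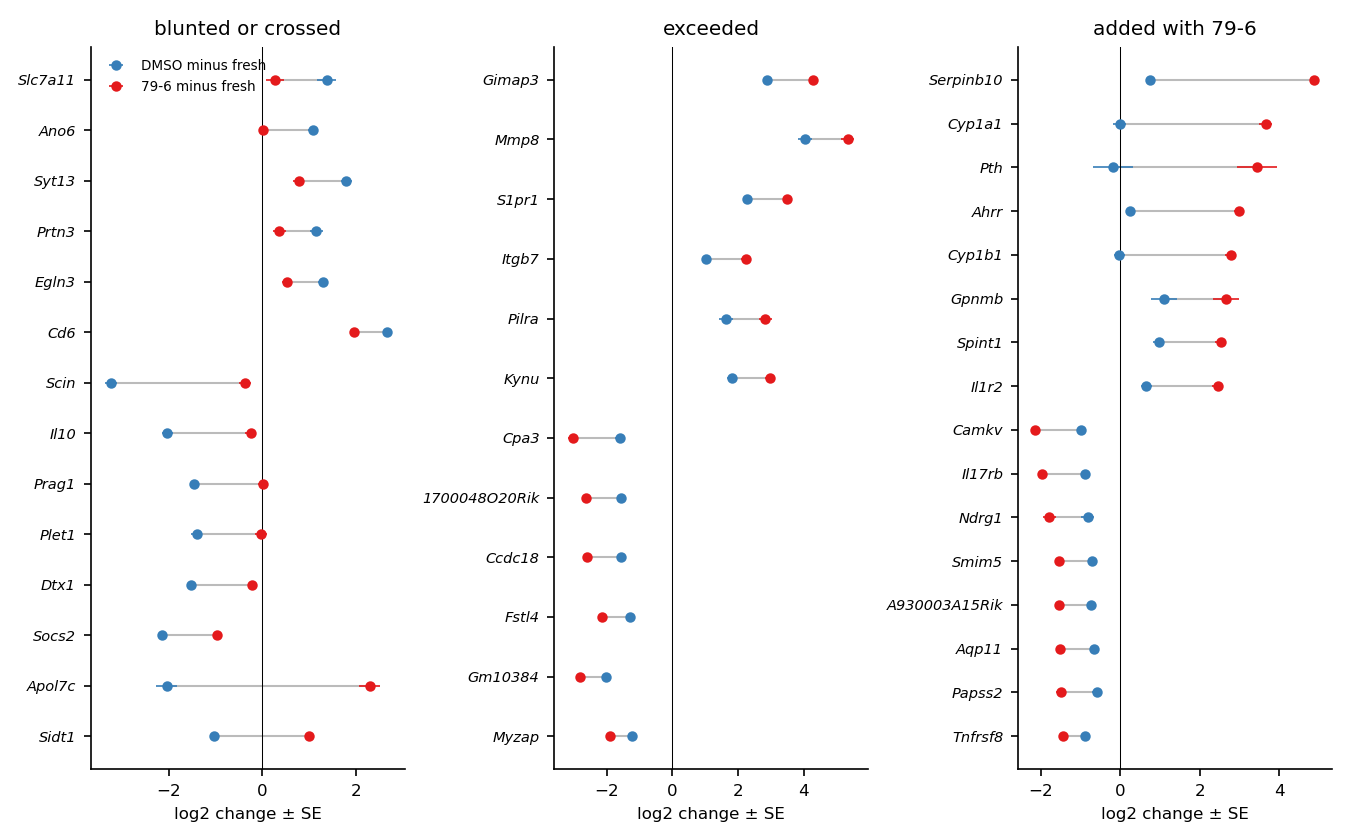
log2 change from fresh (horizontal axes, bars are limma standard errors) with DMSO (blue) and with 79-6 (red) for the genes with the largest differences in each class. Scin, Il10 and Dtx1 move back towards 0 with 79-6, Apol7c and Sidt1 change side, and Gimap3 and Cpa3 move further from 0. Cyp1a1 leaves a DMSO value near 0, and Serpinb10 one of 0.76.

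Among T-lineage transcription factors 9 of 21 were higher than fresh with 79-6 and 7 lower (median 0.06), and with DMSO 9 and 6 (median 0.07). Runx1, needed for the DN stages, fell by 1.48 against 1.20, Myb by 0.80 against 0.45 and Ets1 rose by 0.68 against 0.66. Gata3 was at 0.01 from fresh with 79-6 (adjusted p = 0.93) and rose by 0.34 with DMSO. Zbtb7b, which directs CD4 fate, rose by 1.15 against 0.67, a difference that was not called (adjusted p = 0.15). The 7 lower calls became 3 without either fresh array.

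Cell-division genes split by phase. Of 21 G2 and mitosis genes 17 were higher than fresh with 79-6 and none lower (median 0.45), and all 21 with DMSO (median 0.67). Mki67, a marker of cycling cells, read 12.24 and 12.14 in fresh cells, 13.11 and 13.02 with DMSO and 12.87 and 12.83 with 79-6, a rise of 0.66 against 0.88. Bub1, of the spindle checkpoint, rose by 0.72 against 1.09. Of 23 S phase and replication genes 3 were higher than fresh with 79-6 and 12 lower (median -0.30), whereas with DMSO 7 were higher and 1 lower (median 0.03). The helicase subunit Mcm7 read 12.19 and 12.23, then 12 and 12.02, then 11.70 and 11.60 (-0.56, adjusted p = 0.0015), and the polymerase subunit Pold1 fell by 0.62, while E2f2 rose by 1.02 against 1.37. In 9 S phase genes and 3 mitosis genes 79-6 was lower than DMSO. The 9 numbered 0 without 79-6 replicate 2 or either DMSO array, 4 without 79-6 replicate 1 and 2 without either fresh array, and the 3 numbered 0 or 1 without any 1 array.

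Growth and metabolism lists did not move alike. Of 21 ribosome biogenesis genes and Myc targets 18 fell and none rose (median -0.49), and 14 fell with DMSO (median -0.44). The RNA polymerase I subunit Polr1a fell by 0.74 against 0.59, and Mybbp1a by 0.80 against 0.65. Of 22 ATF4 and unfolded-protein-response genes 9 fell and 4 rose (median -0.13), and with DMSO 6 and 2 (median -0.05). Asns, which makes asparagine, fell by 1.46 against 0.75, Phgdh, of serine synthesis, by 0.92 against 0.54, and Atf3 rose by 1.74 against 1.16. Cholesterol synthesis genes gave 7 falls of 16 and no rise (median -0.29), with Lss at -0.89 against -0.65. With DMSO 5 of them fell and none rose (median -0.13). With 79-6, 4 of 20 Nrf2 genes rose and 6 fell (median -8e-04). Of 10 heat shock genes 1 rose and 3 fell (median -0.135), and of 22 oxidative phosphorylation genes 5 rose and 0 fell (median 0.10). Over all genes 12% were higher than fresh with 79-6 and 13.9% lower (median 0.05). Whether these lists differ from those shares was not tested. Without fresh replicate 1 the cholesterol falls numbered 4, the Nrf2 rises and falls 1 and 3, the ATF4 rises 2 and the oxidative phosphorylation rises 1. Without fresh replicate 2 there were 5 ATF4 falls, 2 Nrf2 falls, 2 ATF4 rises and 1 oxidative phosphorylation rise. Without 79-6 replicate 2 there were 1 Nrf2 and 2 ATF4 rises, without 79-6 replicate 1 there were 2 Nrf2 and 2 oxidative phosphorylation rises, and without either DMSO array 2 Nrf2 rises. The heat shock rise, Dnajb1, was lost without any 1 array.

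Among signalling and survival lists, T cell receptor signalling genes gave 10 rises and 5 falls of 19 with 79-6 (8 and 6 with DMSO), with Cblb, a ligase that restrains the receptor, at -1.76 against -1.87. Activation-induced genes gave 6 rises and 3 falls of 24 (4 and 6), with Nr4a1 at 1.08 against 1.19 and Jun at -0.99 against -1.28. Of 18 p53 targets 8 rose and 3 fell (6 and 3), led by the death receptor Fas at 1.42 against 1.55, and of 14 apoptosis regulators 7 rose and 1 fell (4 and 2). Cytokine and receptor genes gave 6 rises and 4 falls of 21 (5 and 5), with the interleukin-6 receptor Il6ra at 1.91 against 1.38 and Il4ra at 1.09 against 0.89. List medians with 79-6 were 0.29 (receptor signalling), 0.11 (activation), 0.10 (p53), 0.28 (apoptosis) and 0.18 (cytokines), against 0.05 over all genes. Over all genes 12% were higher than fresh with 79-6 and 13.9% lower, and a difference of these lists from those shares was not tested. Without fresh replicate 1 the activation rises numbered 3, the p53 rises 3 and the receptor-signalling falls 3. Without fresh replicate 2 the apoptosis rises numbered 3, the p53 rises 4, the cytokine falls 2 and the receptor-signalling falls 3, which also numbered 3 without 79-6 replicate 1. The apoptosis fall was lost without any 1 array.

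Interferon-stimulated genes fell in both stimulated groups, less so with 79-6. Of 17 measured 15 were lower than fresh with 79-6 (median -0.91) and all 17 with DMSO (median -1.32), and none was higher. Oas2, a sensor of double-stranded RNA, read 11.18 and 11.22 in fresh cells, 9.19 and 9.28 with DMSO and 9.41 and 9.62 with 79-6, a kept fall of 1.69 against 1.97. Mx2 (-1.85 against -2.08), Oasl2 (-1.54 against -1.97) and Rtp4 (-1.17 against -1.59) were kept as well. Of the 13 list members that were stimulation changes 8 were kept and 5 blunted: Ifit3, Rsad2, Irf7, Cxcl10 and Oasl1. Irf7, which amplifies the response, fell by 0.72 against 1.31, and Rsad2 by 0.89 against 1.63. Ifit3 lost its call against fresh without fresh replicate 2 or either 79-6 array (0.0502 to 0.0827). All 6 members called higher than DMSO lost that call without 79-6 replicate 2, DMSO replicate 1 or DMSO replicate 2. Class I antigen presentation genes gave 3 falls of 13 with 79-6 (median -0.16), 1 of them without fresh replicate 1, and 7 with DMSO (median -0.30). Over all genes 13.9% were lower than fresh with 79-6.

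**Figure D4:**
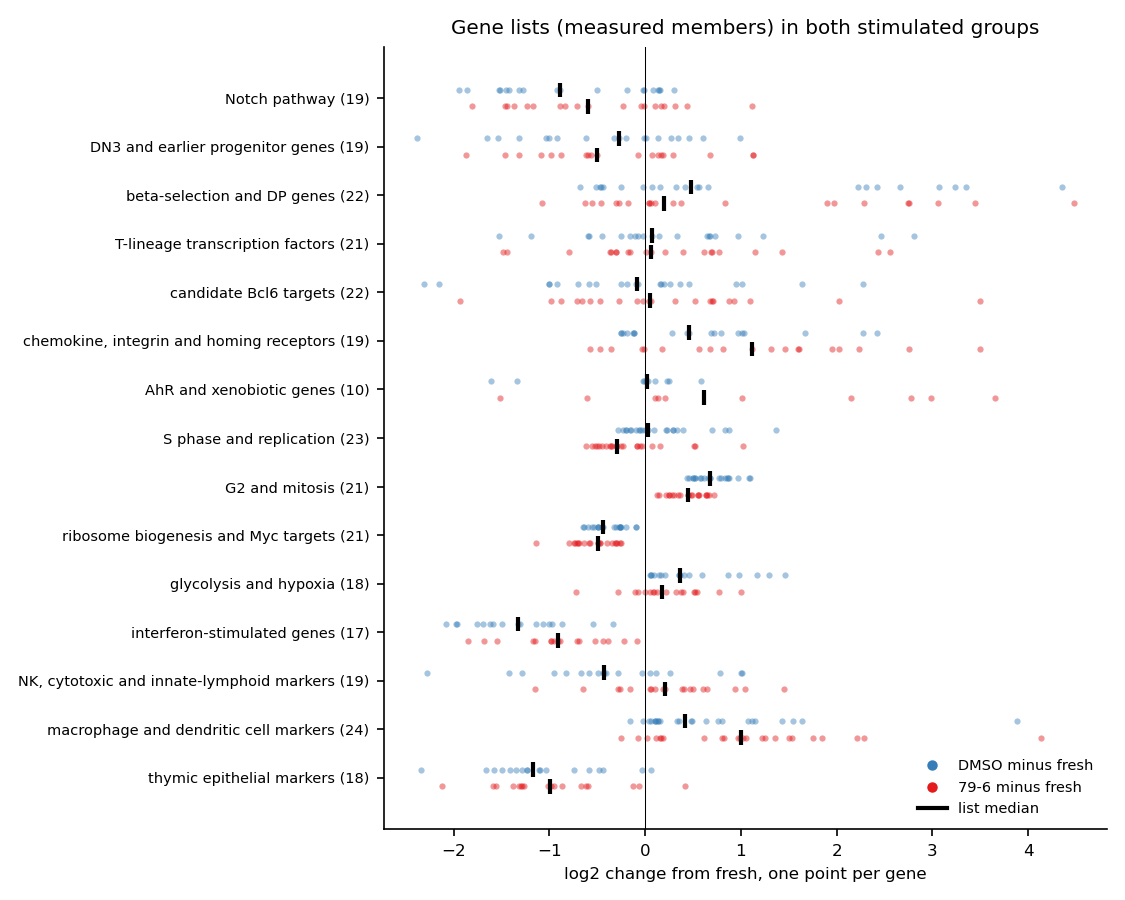
log2 change from fresh (horizontal axis) of each measured member of 15 gene lists, with DMSO (blue) and with 79-6 (red); the black bar is the list median and the number of members stands in parentheses. The homing list has its median at 1.12 with 79-6 and 0.46 with DMSO, and the interferon list at -0.91 and -1.32.

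Markers of other cells moved along with these changes, and their part in them was not tested. In bulk RNA, more cells of a type and more RNA per cell cannot be told apart. Of 24 macrophage and dendritic cell markers 17 were higher than fresh with 79-6 and none lower (median 1.0), and 8 with DMSO (median 0.41). Their summed intensity was 8847 and 13157 in fresh cells, 22921 and 24457 with DMSO and 30659 and 34234 with 79-6, so that both 79-6 arrays lay above both DMSO arrays. The integrin Itgam rose by 2.29 against 1.55, the macrophage receptor Adgre1 by 2.21 against 1.63 and Fcgr3 by 1.85 against 1.14, with no difference called between the stimulated groups, whereas the complement gene C1qa (1.02 against 0.04) and the dendritic integrin Itgax (1.25 against 0.12) were added with 79-6. The latter calls were lost without 79-6 replicate 2 or either DMSO array, and that of C1qa also without 79-6 replicate 1 (0.0602 to 0.164). Mmp8, Pilra, Kynu, Gpnmb, Il1r2 and Itgb3 are also known from myeloid cells. Granulocyte and mast cell markers gave 6 rises and 1 fall of 18, with S100a8 at 2.54 against 2.03 and S100a9 at 1.66 against 1.25, and with DMSO 7 rises and 1 fall. Against DMSO 1 marker was higher with 79-6 (Mmp8) and 4 were lower: Cpa3 and the neutrophil granule genes Mpo (0.03 against 0.89), Prtn3 (0.36 against 1.16) and Ctsg (0.21 against 0.95). These 4 numbered 1 without DMSO replicate 1 or 79-6 replicate 2, and 2 without DMSO replicate 2 or 79-6 replicate 1, and the 1 higher numbered 0 without either DMSO array or 79-6 replicate 2 and 3 without 79-6 replicate 1. The list had a sum of 4429 and 5110, then 6143 and 6037, then 7068 and 9040.

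NK, cytotoxic and innate-lymphoid markers were mostly lower than fresh with DMSO (3 higher and 10 lower of 19, median -0.43) and not with 79-6 (7 higher and 1 lower, median 0.20). Nkg7, of cytotoxic granules, read 11.99 and 12.13 in fresh cells, 10.68 and 10.88 with DMSO and 11.93 and 11.87 with 79-6. It stood at -0.16 from fresh with 79-6 (adjusted p = 0.27) and 1.12 above DMSO, with any 1 array left out. Granzyme Gzmb read 10.19 and 10.62, then 8.32 and 7.93, then 9.26 and 9.25, a fall of 1.15 against 2.28, and Klrd1, which encodes CD94, was 0.94 above fresh against -0.03. Calls against DMSO for Gzmb and Klrd1 were lost without 1 or more of the 79-6 and DMSO arrays (0.0516 to 0.107). In the list 7 genes were higher than DMSO and 1 lower, and these 7 numbered 1 or 2 without either DMSO array or 79-6 replicate 2, 4 without 79-6 replicate 1 and 12 without either fresh array. Without fresh replicate 1 the list had 3 falls against fresh and a median of -0.02, and without either DMSO array or 79-6 replicate 2 it had 2 falls. Their sum was 19762 and 25098 in fresh cells, 21639 and 21766 with DMSO and 27729 and 29337 with 79-6. T-lineage cells express several of them, such as Id2 and Il2rb.

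Thymic epithelial markers fell in both stimulated groups. With 79-6, 14 of 18 were lower than fresh and 1 higher (median -1.0). With DMSO 16 were lower (median -1.17). Cdh1, the epithelial cadherin, read 10.95 and 11.03 in fresh cells, 8.41 and 8.89 with DMSO and 8.79 and 8.94 with 79-6. The keratin Krt5 fell by 1.59 and Epcam by 1.38. Their sum was 15487 and 15871, then 5299 and 7453, then 6811 and 6613. With 79-6, platelet markers gave 3 rises of 7 (median 0.08). Their sum was 1165 and 1541, then 1437 and 1356, then 2251 and 2654. B cell markers gave 3 falls of 11 (median 0.04) and erythroid markers 2 rises and 3 falls of 7 (median 0.13). Mesenchymal and endothelial markers gave 3 rises and 3 falls of 15 (median 0.23). Over all genes 12% were higher than fresh with 79-6 and 13.9% lower (median 0.05), and a difference of these lists from those shares was not tested. Without 79-6 replicate 2 the platelet rises numbered 1, and the erythroid rises 1. Without fresh replicate 1 there was no erythroid or epithelial rise, 1 mesenchymal rise and 2 granulocyte falls, and without either 79-6 array 1 B cell marker was higher. General T-lineage and leukocyte genes gave 9 rises and 3 falls of 12 in both stimulated groups.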

How the data were processed

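The deposited values are intensity values of a 1-colour Affymetrix whole-transcript array, made by the authors with RMA, per the submitters' processing notes, which also name oligo; the sources used here give neither versions nor genome build. They are on the linear scale, so log2 was taken before every test, although the planned description assumed log2 values. Per the labels, RNA came from the PicoPure kit and was labelled with biotin. Of 34760 probe sets 21640 had 1 gene symbol, 1321 several and 11799 none; the brightest per gene over the 6 arrays was tested for 19937 genes. Arrays have no depth in counts, and 2 arrays per group limit the precision.

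All 6 arrays were fitted with 1 mean per group (limma 3.58.1, R 4.3.3, lmFit and eBayes, 3 residual degrees of freedom, 4.24 prior). Tests were two-sided, and p-values were adjusted by Benjamini-Hochberg across the 19937 genes, with a threshold of 0.05; SE is limma's standard error. Same-numbered arrays deviated from their group means with correlations of 0.0948 (79-6 and fresh), -0.074 (79-6 and DMSO) and 0.00357 (DMSO and fresh), which does not settle whether numbers pair arrays. Replicate 1 of 79-6 and replicate 1 of DMSO differed in their sex-linked genes, so they did not hold the same mix of male and female tissue. The code was tested on simulated data. Genes, classes and the 33 lists (565 of 611 entries measured) were chosen with earlier results of these data known. Named genes were the 12 largest changes from fresh in each direction among called genes whose arrays do not overlap (64.5% of all genes do not), the 6 largest differences from DMSO per class and direction (for kept, the largest stimulation changes), the 8 largest added changes per direction, up to 4 called members per list, Bcl6, Thy1, Rag1, plus members of the AhR, DP, Notch, Bcl6 candidate and transcription factor lists. Sex-linked genes, the examples at the 2-fold limit, Kit, Nkg7, Itgae, Ccr7, S1pr4, Cxcr6, Il2rb, Mpo, Ctsg, Foxo1, Gimap4, Gimap6, Gimap8, Cd52, Bnip3, Bcl11a, Itgax, C1qa, Ifit3, Rsad2, Irf7, Cxcl10 and Oasl1 were named after their values were seen. Promoters came from RefSeq, with GCGTG sought on both strands. Alternatives were the replicate block, 2 normalizations, a filter on dim genes, the mean of probe sets, trend and robust settings, the fit on 4 arrays, other minimum folds, 1 DMSO array at a time and each array left out.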

Additional observations from a re-analysis of the deposited data

How the results depend on the processing

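No call of a named gene changed sign under any alternative run. Beside the settings that leave out an array, 67 of 79 counts stayed within 1.5 times their reported value. The other 12 were 1 crossed change with arrays centred on one median; 1547 and 1723 genes called between 79-6 and DMSO without genes under the median level and with trend and robust settings; 2701 kept, 274 blunted, 206 exceeded and 19 crossed changes when a stimulation change needed no minimum fold, and 61, 13, 9 and 1 when it needed 4-fold; and 322 added changes with no minimum fold. With 1 array left out, calls against fresh ran from 3081 to 5068, higher ones from 1349 to 2542 and lower ones from 1732 to 2552; those at least 2-fold from 636 to 751, and DMSO against fresh at least 2-fold from 517 to 560. Calls between 79-6 and DMSO ran from 93 to 661, kept changes from 393 to 494, blunted from 13 to 74, exceeded from 10 to 64, crossed from 1 to 2 and added from 34 to 153. Where leaving out an array left 1 in its group, that array was assumed to vary like the other groups. The replicate block gave 4852 calls against fresh, 774 against DMSO, 389 kept, 73 blunted, 51 exceeded, 2 crossed and 146 added changes; whether the numbers pair the arrays is not known. Genes higher than fresh made up 43.8% to 50.2% of calls, against 46.4% as reported. Of 207 named genes called against fresh, 27 and 20 were lost without fresh replicate 1 or 2, and 9 and 18 without 79-6 replicate 1 or 2. Differences from DMSO rested most on 3 arrays: of 87 such calls 46 and 56 were lost without DMSO replicate 1 or 2 and 54 without 79-6 replicate 2.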

Other observations

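Probe sets with no gene symbol also differed between 79-6 and fresh cells. In a fit over all 34760 probe sets, 313 of 11799 without a symbol differed at least 2-fold at an adjusted p under 0.05 by limma (2.65%), 56 higher and 257 lower, and 30 of 1321 with several symbols (2.27%), 14 higher and 16 lower. They are unnamed here and entered no list or class.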
